A study of Homo sapiens with 7 samples.

Results

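NCL, NPM1, FBL, DKC1, NOP56 and NOP58 encode core proteins of the nucleolus, and these 6 genes are described here across deposited lists of N6-methyladenosine (m6A) peaks. Of 13566 Ensembl gene IDs with a peak in any list, 5 belonged to them, since NPM1 had none. NCL was chosen by the authors' peak scores and its peaks in all 4 lists, and the other genes were added as nucleolar proteins with these lists known, so counts and scores of the members are a description. A peak was assigned to a gene by the Ensembl ID that the list gives it. The cells were HEK-293T, a human embryonic kidney line, with no genetic change or drug named in the labels. In MeRIP-seq, fragmented polyA RNA was captured with an anti-m6A antibody (replicates 1 and 2). In m6A-ORL, RNA fragments reacted with NO/O2, then TDO and then the probe BA, and were captured through biotin on streptavidin beads and eluted with DTT. The RNA of m6A-ORL replicate 1 is labelled total RNA and that of replicate 2 polyA RNA, so RNA type and replicate cannot be told apart within m6A-ORL. The protocol text that all samples share describes oligo(dT) selection and names no exception, so the RNA type of replicate 1 is uncertain, and total RNA library below stands for its label alone. Of 7 samples, the 3 inputs were not used here. Titles of the captured libraries end in treated and those of the inputs in control, words read here as capture and input. Whether replicates are separate cultures is not stated in the labels.

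The nucleolus is where ribosomal RNA is transcribed, chemically modified and assembled with proteins. Particles guided by small nucleolar RNAs (snoRNAs) place most of the modifications. Box C/D particles (SNORD RNAs) carry fibrillarin, NOP56 and NOP58 and methylate riboses, and box H/ACA particles (SNORA RNAs) carry dyskerin and make pseudouridine. Many snoRNAs are cut out of introns of genes for proteins of the same machinery, so the genes described here also contain small RNA genes. A peak marks a stretch enriched in the capture, and neither its presence nor its absence measures expression.

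The lists held 20760 and 20216 peaks for MeRIP replicates 1 and 2, and 11022 and 7661 for m6A-ORL replicates 1 and 2. Read depth is unknown. The deposited score of a peak, a p-value or q-value of the authors, is used to rank a peak within its own list, given as a percent of the list from the best, and as a limit in 1 alternative that keeps only peaks with a score of at most 1e-05. Scores tie at 0 for 287 MeRIP replicate 1 peaks and 308 MeRIP replicate 2 peaks. Of 8 markers of other cell types, GFAP had 2 peaks in each MeRIP list and the other 7 had no named peak, although the INS span held a peak whose ID got no name.

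NCL and NOP56 carried most of the peaks, FBL carried 1 in 3 of the lists, DKC1 and NOP58 carried 1 each in a single list, and NPM1 carried none. Over all members the MeRIP lists held 7 and 7 peaks (mean 7.0 ± 0.0 SD, n = 2) and the m6A-ORL lists 6 and 9 (mean 7.5 ± 2.12 SD, n = 2). Bases covered were 1562 and 1353 nt by MeRIP (1457.5 ± 148 SD, n = 2) and 1145 and 1830 nt by m6A-ORL (1487.5 ± 484 SD, n = 2). The method means differed by less than the spread between the m6A-ORL libraries, and no exact two-sided permutation test of 2 libraries against 2 can give a p under 0.33. Peaks in both MeRIP lists were found for 3 members (NCL, FBL and NOP56), where 65.9% of all genes with any peak met that condition. Peaks in both m6A-ORL lists were found for 2 members (NCL and NOP56), against 19.3% of all genes, and the same 2 had a peak in all 4 lists, against 15.8%. NCL was chosen for its peaks in all 4 lists and so meets each of these conditions by choice. These shares are therefore no measure of enrichment among the members. By library, 3 members were listed in either MeRIP library, 2 in the m6A-ORL library of total RNA and 5 in that of polyA RNA, against 72.2%, 71.0%, 53.1% and 33.1% of all genes.

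**Figure D1:**
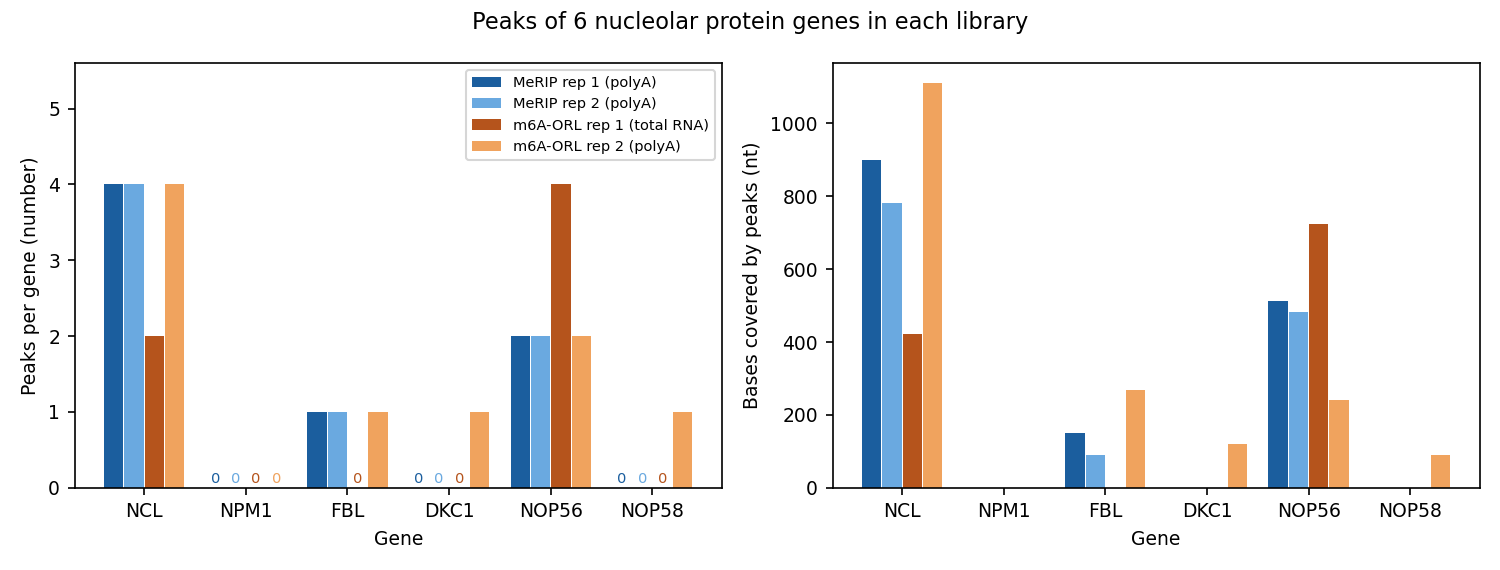
Peaks per gene (left, number) and bases covered by those peaks (right, nt) for the 6 genes in each of the 4 libraries, 1 bar per library with no error bar. NCL reaches 4 peaks in 3 libraries and NOP56 reaches 4 in the total RNA library, while NPM1 is at 0 throughout.

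NCL (ENSG00000115053, hg38 chromosome 2, 231453531 to 231464484, minus strand) encodes nucleolin, an abundant RNA-binding protein that acts in ribosomal RNA transcription and processing. Its lists gave 4 peaks in MeRIP replicate 1, 4 in MeRIP replicate 2, 2 in m6A-ORL replicate 1 and 4 in m6A-ORL replicate 2. The bases covered were 900, 781, 421 and 1110 nt in the same order. The total RNA library was the low one, and the m6A-ORL polyA library lay above both MeRIP libraries in covered bases. In the list of MeRIP replicate 1, 14.7% of genes had at least as many peaks as NCL, and 14.0%, 31.0% and 7.59% did in the others. Its best peak ranked within the first 0.694% and 0.764% of the MeRIP lists, where it tied with the others at a score of 0, and at 2.52% and 0.405% of the m6A-ORL lists.

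Joined across libraries, the NCL peaks formed 4 regions. The region at the 5′ end of the gene, 0 to 396 nt from the RefSeq start, had a peak in all 4 libraries, and 90 nt of it were covered in every one. It was the best NCL peak of the total RNA library (score 3.2e-52), whereas in the MeRIP lists it ranked at 32.6% and 44.5%, behind the peak near the 3′ end. In m6A-ORL replicate 2 it ranked at 1.27%. MeRIP replicate 2 began 89 nt from the start, and the other 3 libraries covered the start itself. In those 3 libraries the peak also carried a further short block (a piece of the peak beyond a gap, as at a splice junction) 18200 nt upstream of the RefSeq start, of 1, 121 and 31 nt in MeRIP replicate 1 and m6A-ORL replicates 1 and 2, inside the span of LOC107985998. Peaks with a gap of more than 10000 nt between blocks made up 2.0%, 1.96%, 1.15% and 2.15% of the lists.

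The second NCL region, at 1210 to 1270 nt, was a 61 nt peak of m6A-ORL replicate 2 alone, ranked at 92.6% of its list. The third, at 2693 to 3978 nt, was listed in both MeRIP libraries as 2 separate peaks and in m6A-ORL replicate 2 as 1 peak of 509 nt in 3 blocks, the best NCL peak of that library (score 2.5e-61). The total RNA library had no peak there.

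The fourth NCL region lay 8906 to 9458 nt from the start, about 1495 nt short of the 3′ end of the span. The MeRIP replicates listed the identical peak, 231455056 to 231455578, in blocks of 212 and 178 nt with a score of 0 in both. The m6A-ORL libraries split it. Replicate 2 covered 270 nt, all of them inside the MeRIP peak (score 3.2e-59), and replicate 1 covered 121 nt at the downstream edge, 91 of them inside the MeRIP peak (score 9.5e-06). The m6A-ORL peaks did not touch, with 29 nt between them, so no base of this region was covered in all 4 libraries.

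**Figure D2:**
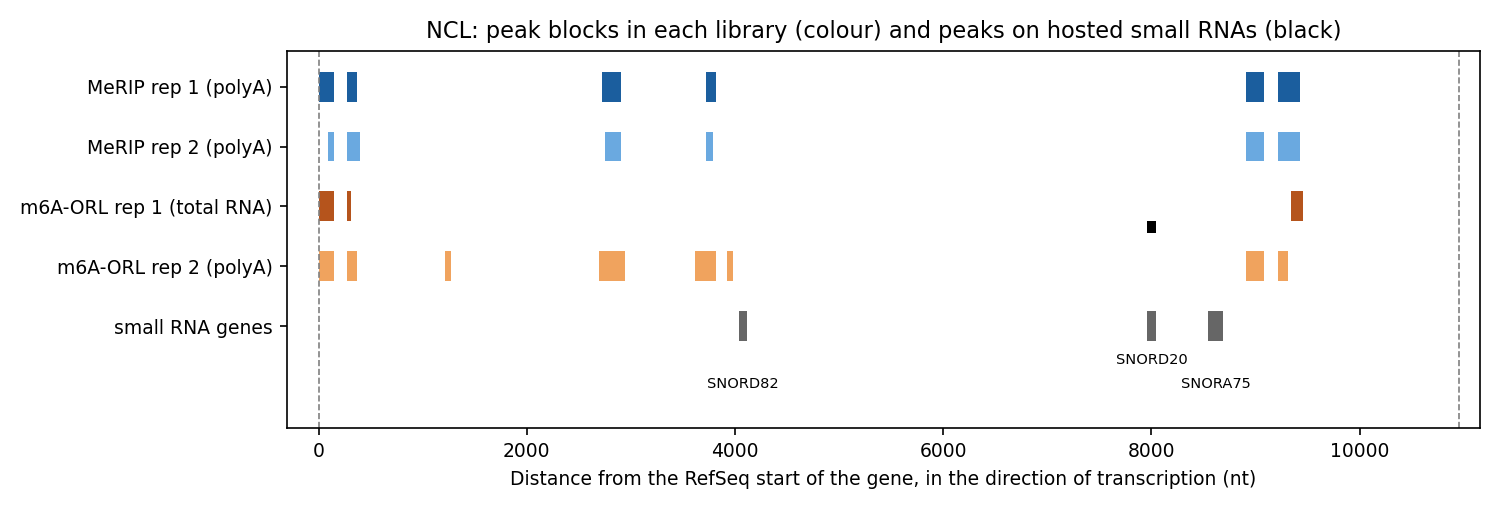
NCL drawn by distance from its RefSeq start (nt, dashed lines at both ends of the span), with the peak blocks of each library in colour, peaks under a small RNA's own ID in black and the small RNA genes of the span in grey. All 4 libraries have blocks at the left end, the total RNA library has none between 2693 and 3978 nt, and a black bar marks its peak on SNORD20. The block 18200 nt upstream lies outside the drawing.

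NOP56 (ENSG00000101361, chromosome 20, 2652632 to 2658393, plus strand) encodes a core protein of box C/D particles. MeRIP gave 2 peaks in either library, and m6A-ORL gave 4 in replicate 1 and 2 in replicate 2, covering 512, 482, 724 and 242 nt. The total RNA library was the high one here, the reverse of NCL. Of its 4 NOP56 peaks, however, 2 held a SNORD gene (SNORD110 and SNORD57) and covered 211 nt each. Whether those reads came from NOP56 RNA was not tested. In the total RNA list 5.07% of genes had at least 4 peaks. The best NOP56 peak tied at a score of 0 in both MeRIP lists and ranked at 4.48% and 43.9% of the m6A-ORL lists. The peak at 4.48% was the one over SNORD110.

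Although NOP56 had peaks in all 4 lists, no base of it was covered in all 4. Of the 2138 genes with a peak in every list, 842 (39.4%, exact 95% interval 37.3 to 41.5) had at least 1 nt covered in every list, NCL among them. The peak at the 3′ end of NOP56, ending on the last base of the span, was identical in both MeRIP libraries (301 nt) and was listed as 151 nt, all inside it, in m6A-ORL replicate 1. No peak was listed there in m6A-ORL replicate 2. A peak ending 1110 nt before the end of the span was listed in both MeRIP libraries (211 and 181 nt), and 91 nt of it were covered in m6A-ORL replicate 2. The total RNA library had its peak next to it, and that peak held SNORD57. It shared 1 nt with MeRIP replicate 1 and lay 29 nt from the peaks of MeRIP replicate 2 and m6A-ORL replicate 2.

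The remaining NOP56 peaks were each listed in 1 m6A-ORL library. In replicate 1 a peak of 151 nt began 39 nt before the RefSeq start and ended 111 nt after it (score 7.9e-06). A peak of 2 blocks in the same library, which held SNORD110, lay at 1155 to 1720 nt (score 1e-26). In replicate 2 a peak of 151 nt lay at 3751 to 3901 nt (score 7.9e-06).

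**Figure D3:**
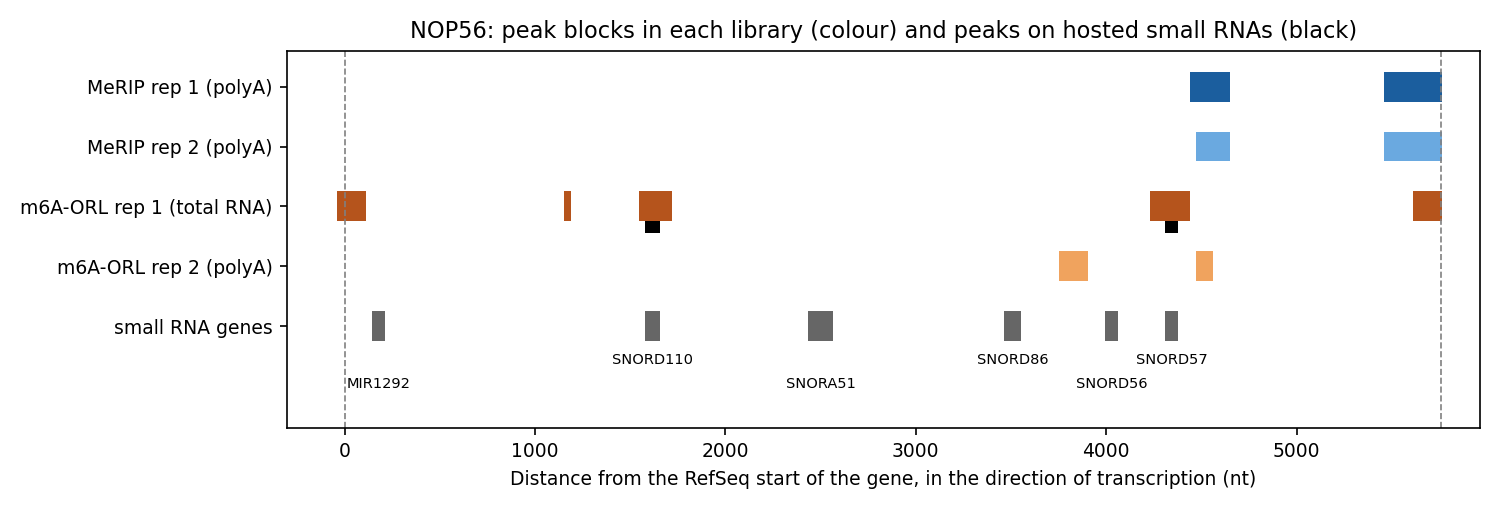
NOP56 drawn in the same way, by distance from its RefSeq start (nt), with peak blocks of each library in colour, peaks under a small RNA's own ID in black and the small RNA genes in grey. The MeRIP libraries share their pair of peaks, and black bars under the total RNA library mark its peaks on SNORD110 and SNORD57.

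FBL (ENSG00000105202, chromosome 19, 39834458 to 39846379, minus strand) encodes fibrillarin, the methyltransferase of box C/D particles. It had 1 peak in each MeRIP library (150 and 90 nt), none in m6A-ORL replicate 1 and 1 in m6A-ORL replicate 2 (268 nt). The peaks formed a single region, 5622 to 6076 nt from the start, and both MeRIP peaks lay wholly inside the m6A-ORL peak. That peak ranked at 1.14% of its list, and the MeRIP peaks at 17.7% and 33.0% of theirs. FBL thus had its peak in the 3 libraries labelled polyA RNA and not in the one labelled total RNA, a label the shared protocol text does not bear out. The share of all genes with this pattern is not given, so nothing particular to FBL can be read from it.

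NOP58 (ENSG00000055044, chromosome 2, 202265763 to 202303661, plus strand), the partner of NOP56 in box C/D particles, had a single peak of 90 nt in m6A-ORL replicate 2 (202302946 to 202303035, score 1.4e-05, at 48.2% of the list), 626 nt before the end of its span. DKC1 (ENSG00000130826, chromosome X, 154762864 to 154777689, plus strand) encodes dyskerin, the pseudouridine synthase of H/ACA particles. It had a single peak of 120 nt in 2 blocks, also in m6A-ORL replicate 2 (154776232 to 154776825, score 6.2e-06, at 41.6%), 864 nt before the end of the span. Neither gene had a peak under its ID in another list, so these peaks have no replicate. Both ranked near the middle of that list, as did its best NOP56 peak (43.9%), while its best NCL and FBL peaks ranked at 0.405% and 1.14%.

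NPM1 (chromosome 5, 171387116 to 171410900) encodes nucleophosmin, a histone and ribosome assembly chaperone of the outer nucleolus. No peak on either strand touched its span in any list. The RefSeq table lists 50 pseudogenes named after NPM1, and 2 of them were overlapped by a peak in 1 list each. NPM1P27 was covered for 179 nt in m6A-ORL replicate 2 (score 1.2e-05) and NPM1P9 for 59 nt in MeRIP replicate 1 (score 0.0026). The handling of reads that fit several copies is not stated, and its part in the count of 0 for NPM1 was not tested. None of the 6 pseudogenes named after NCL, FBL and NOP56 had an overlapping peak. The share of all pseudogenes with an overlapping peak is not given, so these counts cannot be set beside it.

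Counted peak by peak, the MeRIP peaks of the members were all found again. Of 7 peaks in replicate 1, 7 were overlapped by replicate 2 (83.6% of all peaks of that list), and 7 of 7 the other way (86.0%). Of the 6 m6A-ORL replicate 1 peaks, 1 was overlapped by replicate 2 (13.8% of all its peaks), and 1 of 9 the other way (19.6%). That one was the 5′ peak of NCL. Between methods, 7 of 7 MeRIP peaks in each replicate were overlapped by a peak of either m6A-ORL list (33.5% and 33.0% of all peaks). Of these 7, 4 in each replicate belonged to NCL. That gene was chosen by its scores and its peaks in all 4 lists, which favours such overlap. By either MeRIP list, 4 of 6 and 5 of 9 m6A-ORL peaks were overlapped (54.7% and 47.8%). Joined across libraries, the members had 12 regions, 3 with a peak in all 4 libraries, 3 in 3, none in 2 and 6 in a single library. Over all 31199 regions joined in the same way within a gene, these shares were 4.18%, 15.8%, 36.0% and 44.0%. Of the 3 member regions in all 4 libraries, only that at the 5′ end of NCL had bases covered in every one (90 nt). The fourth NCL region and the NOP56 region at 4231 to 4651 nt had 0 such bases. In that NOP56 region the total RNA peak was joined through 1 nt shared with MeRIP replicate 1. Each of the members' 6 single-library regions came from an m6A-ORL library. Over all genes, 8251 of the 13718 single-library regions came from an m6A-ORL library, which is 26.4% of all 31199 regions. Peaks of 1 transcript share their source and are not replicates. Without m6A-ORL replicate 2, 50% of the members' MeRIP peaks (7 of 14) were overlapped by m6A-ORL. Without m6A-ORL replicate 1 the figure was 85.7%, and m6A-ORL replicate 2 alone listed 5 members.

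The start of transcription is where the data touch the promoter table, since NCL and NOP56 had peaks on their annotated start and the others did not. The sequences below run 5′ to 3′ from 40 bases before the RefSeq start (lower case) through the first 30 transcribed bases (capitals), GRCh38.p14.
NCL, chr2:231464455-231464524, minus strand: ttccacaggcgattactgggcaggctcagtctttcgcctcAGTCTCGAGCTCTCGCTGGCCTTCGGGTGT
NOP56, chr20:2652592-2652661, plus strand: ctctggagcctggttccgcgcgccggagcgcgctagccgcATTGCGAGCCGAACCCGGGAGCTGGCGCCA
FBL, chr19:39846350-39846419, minus strand: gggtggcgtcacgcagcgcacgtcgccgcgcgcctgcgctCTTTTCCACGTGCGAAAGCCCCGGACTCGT
NPM1, chr5:171387809-171387878, plus strand: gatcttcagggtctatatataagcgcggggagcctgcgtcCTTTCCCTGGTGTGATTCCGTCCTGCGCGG
All 30 capital bases of NCL lay under the 5′ peak in MeRIP replicate 1 and both m6A-ORL libraries, and 0 in MeRIP replicate 2. Where it covered them, that peak also had the block 18200 nt upstream. Whether its reads came from RNA of the annotated start or of another start was not tested. For NOP56, 69 of the printed bases lay under the peak of m6A-ORL replicate 1 and 0 in the other libraries. The FBL and NPM1 windows were covered in no library.

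NCL and NOP56 start with A in this annotation, as did 44.4% of the 35116 windows of the table, while FBL and the printed NPM1 start begin with C (14.7%). Of the first 10 transcribed bases, 8 were C or T in FBL and in this NPM1 start, a count reached by 9.95% of all windows. NCL and NOP56 had 5, the median of all windows, and DKC1 and a further NPM1 start at 171387116 had 4. The letters GGACT, a form of the m6A consensus, were searched on both strands of windows from 250 bases before each start to 50 after it, and 44.2% of all windows held them. Most of such a window lies before the start and is not in the RNA from it, so these letters are not counts of sites in the RNA. They occurred 2 times for FBL, 1 time at each NPM1 start and 0 times for NCL, NOP56 and DKC1. For FBL, 1 match lies in the printed transcribed bases, a window that no library covered. The shorter GGAC, searched in the same way, occurred 2 times each for NCL, NOP56, DKC1 and FBL. It occurred 4 times at the printed NPM1 start and 2 times at the further one, and 87.4% of all windows held it. The table has no entry for NOP58.

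The spans of the members contain 16 small RNA genes in the RefSeq table, 3 in NCL, 6 in NOP56, 4 in NOP58, 3 in DKC1 and none in FBL or NPM1. Of these, 4 had a peak under an ID of their own, each in m6A-ORL replicate 1, the library labelled total RNA, and no other library listed any. All were SNORD genes, 4 of the 10 in these spans, where 36 of 357 SNORD genes of the table (10.1%, exact 95% interval 7.16 to 13.7) had such a peak in that library, defined as covering at least 50% of the small RNA and no longer than 2 times its length. None of the 4 SNORA genes had one (12 of 182 in the table, 6.59%, exact 95% interval 3.45 to 11.2), nor had MIR1292 in NOP56 or MIR664B in DKC1. In MeRIP replicates 1 and 2 and m6A-ORL replicate 2, 0.00% of SNORD and of SNORA genes had one.

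SNORD20, in NCL, was covered from its first to its last base (231456444 to 231456523, 80 nt, score 6.3e-28, at 4.24% of the list). The peaks of SNORD110 (2654212 to 2654286, 75 nt, score 3.2e-21) and SNORD57 (2656939 to 2657010, 72 nt, score 6.3e-24), both in NOP56, likewise matched the gene ends. That of SNORD70B in NOP58 was 85 nt over a gene of 75 nt, with a score of 2.2e-05. SNORD110 and SNORD57 also lay inside a peak listed under NOP56 itself, so 2 of the 4 NOP56 peaks of the total RNA library held a snoRNA. Whether these reads came from the snoRNA or from NOP56 RNA was not tested. SNORD70B was the only peak of the total RNA library in the NOP58 span. When peaks were assigned by span and strand instead of by ID, NOP58 therefore had peaks in both m6A-ORL libraries, 1 of them on the snoRNA.

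The members were set beside 5 lists of other nucleolar genes. Of 119 genes, 86 had a named peak in any list, 14 had a peak in their span whose ID got no name and were left out, and 19 had none. Peaks in both MeRIP lists were found for 59 of the 86, and in both m6A-ORL lists for 34, and in all 4 lists for 31, beside 65.9%, 19.3% and 15.8% of all genes with a peak, which include noncoding genes and IDs without a name. As shares of the 86, these were 68.6%, 39.5% and 36%. Of the 31, 10 had a base covered in all 4 lists, as NCL had, beside 39.4% of all genes with a peak in every list. Of the 86, 7 had peaks in both MeRIP lists and in no m6A-ORL list, beside 25.1% of all genes with a peak. The reverse held for 1, the RNA helicase gene DDX49, beside 2.68%. With only peaks of a score of at most 1e-05, 12 genes were counted in both m6A-ORL lists. That limit left 4618 and 3517 peaks in m6A-ORL replicates 1 and 2. The share of all genes at this limit is not given, so the 12 cannot be set beside the 19.3%.

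Among partners and assembly factors of snoRNA particles, 5 of 8 genes with a named peak had peaks in both MeRIP lists and 3 in both m6A-ORL lists. SNU13, which binds the kink-turn of box C/D RNAs, had 1 peak per library by MeRIP and 2 per library by m6A-ORL, and ZNHIT6, an assembly factor of the same particles, had 1 in each list. For RNA polymerase I and its factors the counts were 9 and 5 of 11. POLR1A, its largest subunit, had 8 and 9 by MeRIP against 2 and 2 by m6A-ORL, and UBTF, the upstream binding factor of ribosomal DNA, had 2 and 4 against 1 and 1. POLR1G had 3 and 3 against 1 and 2, with 120 nt covered in all 4 lists, and POLR1E had 1 and 1 against none.

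Of the small-subunit processome, which folds and cuts the precursor of the small ribosomal RNA, 18 and 10 of 30 had peaks in both lists of MeRIP and m6A-ORL. PDCD11 had 3 and 3 against 2 and 3, BYSL 2 and 2 against 1 and 1, and RRP36 1 in every list with 121 nt common to all. EMG1 and WDR75 had 1 and 1 against none, and DDX49 had the reverse. Of large-subunit assembly factors, 17 and 8 of 25 had such peaks. RRP1 had 2 and 1 against 1 and 1, SURF6 3 and 3 against 2 and 2, and FTSJ3 2 and 1 against 1 and 4, while NOP2, a methyltransferase of ribosomal RNA, had 2 and 1 by MeRIP and none by m6A-ORL.

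All 12 remaining nucleolar genes had a named peak, 10 in both MeRIP lists and 8 in both m6A-ORL lists. MKI67, the proliferation marker Ki-67, had 14 and 16 by MeRIP against 12 and 10 by m6A-ORL. MYBBP1A had 3 and 3 against 2 and 3, and DDX21, a nucleolar RNA helicase, had 1 and 1 against 2 and 1.

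**Figure D4:**
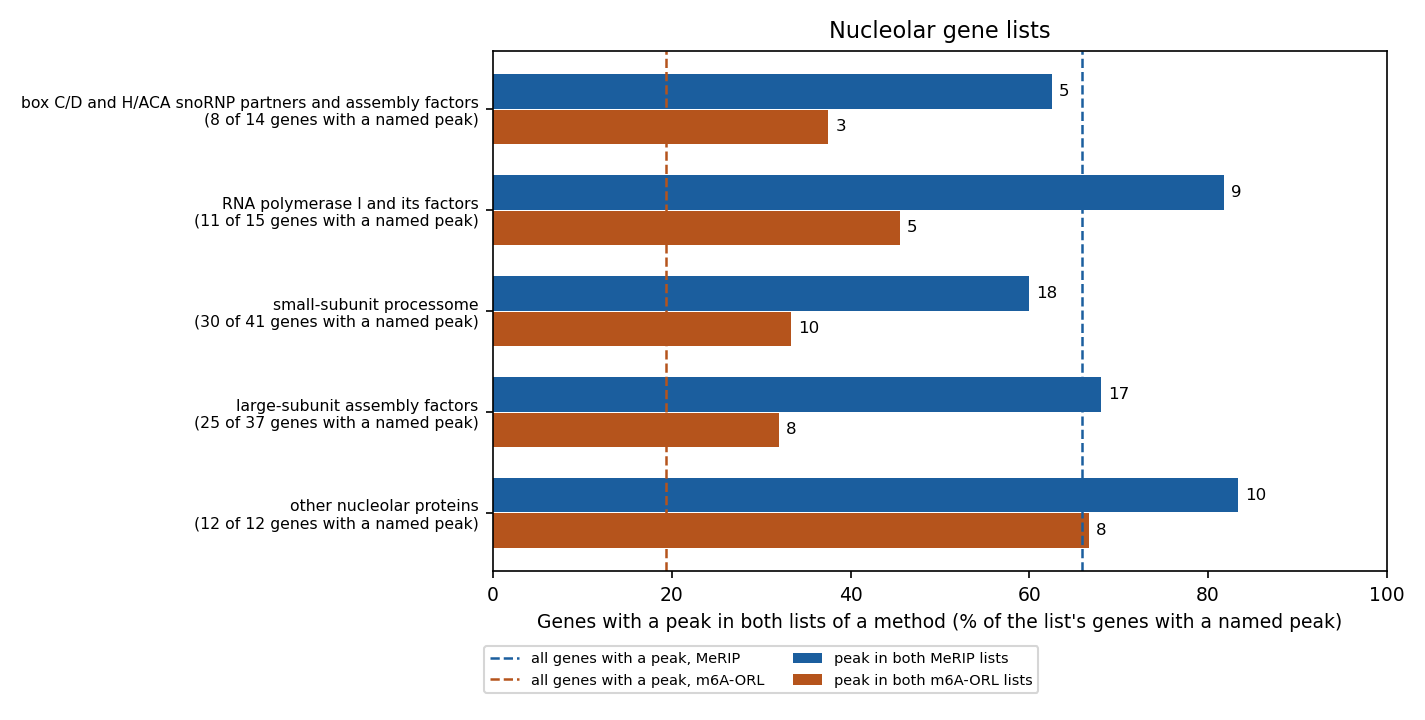
Share of each list's genes with a named peak (percent) that had a peak in both MeRIP libraries (blue) or in both m6A-ORL libraries (brown), with the number of genes beside each bar and dashed lines for all genes with a peak (65.9% and 19.3%). The m6A-ORL bars of all 5 lists lie to the right of their line, and the MeRIP bars lie on both sides of theirs. Lists are small, and no test was made.

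By covered bases over the 4 libraries, on the scale log2(1 + nt), the genes nearest to NCL were PTMS (distance 0.244), HNRNPU (0.409) and MYBBP1A (0.488). PTMS had 862, 803, 389 and 1278 nt covered, in the same order of libraries as for NCL. Nearest to NOP56 were RRP1B (0.445, with 662, 572, 721 and 241 nt) and MAT2A (0.456), and nearest to FBL were R3HDM1 (0.317), SEPTIN8 (0.49) and RBM8A (0.499). These distances rest on 4 libraries and describe the lists alone.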

How the data were processed

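Each captured library came with 1 peak list in 12 BED columns, per the file headers, with blocks, an Ensembl ID and a score. The deposited score lies between 0 and 0.0081 and was read as a p-value or q-value of the authors. Per the submitters' processing notes, the tools were Trim Galore, STAR and HOMER and the build hg38, with no role stated. The program that called peaks, the input it used and its cutoff are not stated in the labels or headers. Duplicate lines (4, 3, 2 and 1) were removed. The members and gene lists were chosen with earlier results of these data known.

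Peaks overlapped when their blocks shared at least 1 nt on the same strand. The RefSeq table (GRCh38.p14) matched 0 IDs directly. An ID was named by position when at least 90% of its peak bases lay in 1 gene's span on the same strand, where the promoter table gives a strand (11549 of 13566 IDs, 85.1%). IDs inside a small RNA gene of at most 300 nt took its name, and where several genes remained, a single protein-coding one was taken. The 6 member IDs were given by hand and had 91.2% to 100.0% of their peak bases in the RefSeq span where they had peaks. Exons were not used here.

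No test across genes was made. Intervals are exact (Clopper-Pearson) and cover counting error only. Named list genes were the 3 with the best mean rank among genes in all 4 lists, and up to 3 found by 1 method alone, not all of which are printed. Similarity was the Euclidean distance of log2(1 + covered nt). Overlap counting was tested on simulated peaks. Alternatives were assignment by span and strand, equal list length, a score of at most 1e-05, joined or duplicate peaks, other overlap rules and each library left out. Python 3.11.15, pandas 2.3.3, numpy 2.4.6 and matplotlib 3.10.9 were used.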

Additional observations from a re-analysis of the deposited data

How the results depend on the processing

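Peak numbers and covered bases of the members stayed within 1.5 times their values under every alternative run, as did the MeRIP counts of genes. Leaving out 1 library in turn gave 50% to 100% of the members' MeRIP peaks overlapped by m6A-ORL (100% with all), 2 to 5 members listed by m6A-ORL (2 with both) and 55 to 56 genes of the 5 nucleolar lists (34 with both), where a method then rests on 1 library. Of these 34, 12 were counted at a score of at most 1e-05, and 77 genes were counted when a peak in either m6A-ORL library sufficed. The share of all genes is not given for either setting, so neither count shows a difference from other genes. Overlap by at least 50% of the shorter peak left 53.3% (8 of 15) of the members' m6A-ORL peaks overlapped by MeRIP, against 60.0% (9 of 15), the peak lost being the NOP56 peak that shares 1 nt. Giving tied scores their lowest rank moved the best MeRIP peaks of NCL and NOP56 from 0.729% to 0.00489%. No paired analysis was possible because no result comes from a test, and the labels do not say whether a replicate number marks a shared culture. Read depth is unknown, so a missing peak cannot be told apart from too few reads.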
